A study of Homo sapiens with 6 samples.

Results

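The IER genes are the 4 immediate early response genes IER2, IER3, IER5 and IER5L, chosen by their symbols and found as 4 of the 60671 Ensembl gene identifiers counted in EndoC-βH1 cells. Each symbol matched 1 identifier. EndoC-βH1 is a human β cell line made from fetal pancreas with SV40 large T antigen and telomerase, and large T antigen binds p53. Bulk RNA-seq compared 3 samples of wild-type EndoC-βH1 cells that received the vehicle DMSO with 3 that received 1 µM AZD7762, an inhibitor of the checkpoint kinases CHEK1 and CHEK2. Both groups went through 1 h of starvation in medium with 0.5 mM glucose and 1 h of stimulation, and vehicle or compound was present in both steps. The stimulation was at a low (0.5 mM) or a high (20 mM) glucose concentration, and the labels do not say which a library received. The comparison asks which transcripts differ between AZD7762 and DMSO after these steps. The labels do not say that the samples of a group were separate cultures, so p-values measure the spread between these samples, which may be technical.

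The libraries held from 20486391 to 29402440 counts, and 3 counts, taken as the floor of detection, corresponded to at most 0.144 normalized CPM (the count brought to a common library total with edgeR's TMM factors). All 12 β cell markers passed the filter on low counts, and together they had from 7871 to 9049 CPM with DMSO and from 8608 to 9129 CPM with AZD7762. CHGA had the highest level of the 12, with means of 3601 CPM with DMSO and 3890 CPM with AZD7762. INS had 1260 and 1410 CPM. Of 5 markers of other islet cells, 3 were tested, and the 5 summed to between 205 and 230 CPM with DMSO and between 245 and 269 CPM with AZD7762, most of it from SST, which was not called. The exocrine markers summed to between 49.8 and 60.5 CPM over all 6 samples, most of it from KRT19 and the enzyme gene CPA1. With DMSO these had 26.1 and 21.8 CPM. Of these 9 genes 4, the enzyme genes PRSS1, CELA3A, AMY2A and PNLIP, had no count. The 8 mesenchymal, endothelial and immune markers matched summed to between 15.0 and 20.6 CPM, with CDH5 at no count. The part of other cells in the results was not tested, and in bulk RNA fewer cells of a type and less RNA per cell cannot be told apart.

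Immediate early genes are transcribed within minutes of a stimulus without new protein synthesis, from promoters that kinase-activated factors such as SRF, the ternary complex factors, CREB and NF-κB already occupy or reach quickly. The IER genes carry this response in their name but are not a single family. IER2, IER5 and IER5L share a conserved N-terminal IER domain, whereas IER3, also called IEX-1, is an unrelated short membrane-anchored protein. IER2 is a nuclear protein linked to transcription and cell motility. IER5 binds the B55 regulatory subunits of the phosphatase PP2A and promotes activation of the heat shock factor HSF1, and IER5L is its close relative. IER3 acts in survival and ERK signalling, is a target of NF-κB and p53, and binds B56 subunits of PP2A.

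On GRCh37, IER2 (ENSG00000160888) lies on the forward strand of chromosome 19 from 13261225 to 13265725, and its canonical transcript has 2 exons. IER3 (ENSG00000137331) lies on the reverse strand of chromosome 6 from 30710976 to 30712325 and also has 2 exons. IER5 (ENSG00000162783), on the forward strand of chromosome 1 from 181057836 to 181062036, and IER5L (ENSG00000188483), on the reverse strand of chromosome 9 from 131937831 to 131940540, each have a single exon of 4201 and 2710 bases. Most of the IER5 transcript is untranslated, with 981 coding bases and a 3′ UTR of 3017 bases, while IER5L has 1212 coding bases. The exons of an antisense RNA gene cover 32.6% of the exon length of IER3 and 41.8% of that of IER5L, and another such gene covers 30.7% of that of IER2. The labels name both an unstranded and a stranded library kit, and whether counting used the strand is not given in the sources used here, so reads in these stretches are uncertain.

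The promoters are shown because the IER genes are usually grouped by how they are induced, and they stand below as the 250 bases before the RefSeq gene start. RefSeq windows on GRCh38.p14 were at hand for 3 of the 4 genes, IER2 (chr19:13150161-13150410, forward strand), IER5 (chr1:181088450-181088699, forward strand) and IER5L (chr9:129178262-129178511, reverse strand). Each runs 5′ to 3′ along the gene, and capitals mark a match, on either strand, to the core TGACG of the cAMP response element (CRE) or to the CCAAT box.
IER2: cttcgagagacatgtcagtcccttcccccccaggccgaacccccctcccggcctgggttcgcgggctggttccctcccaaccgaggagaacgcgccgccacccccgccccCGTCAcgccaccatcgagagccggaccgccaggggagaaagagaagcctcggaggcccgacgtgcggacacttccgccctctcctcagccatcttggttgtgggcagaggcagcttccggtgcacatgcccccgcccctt
IER5: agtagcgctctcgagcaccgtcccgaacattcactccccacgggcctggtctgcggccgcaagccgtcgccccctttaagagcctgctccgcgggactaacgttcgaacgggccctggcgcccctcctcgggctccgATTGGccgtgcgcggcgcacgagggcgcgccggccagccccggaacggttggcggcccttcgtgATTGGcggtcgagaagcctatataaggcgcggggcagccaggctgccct
IER5L: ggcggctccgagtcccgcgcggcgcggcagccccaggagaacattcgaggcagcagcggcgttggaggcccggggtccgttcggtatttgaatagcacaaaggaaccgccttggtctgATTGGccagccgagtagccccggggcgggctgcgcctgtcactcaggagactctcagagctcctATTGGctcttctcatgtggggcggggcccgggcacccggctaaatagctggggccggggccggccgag
The capitals in IER2 are a CRE core on the reverse strand, and those in IER5 and IER5L are CCAAT boxes on the reverse strand, 2 in each. In the full windows of 300 bases, which include 50 bases after the start, the 3 genes held no match to the full CRE TGACGTCA, the CArG box bound by SRF, the heat shock element of GAA, TTC and GAA with 2 free letters between them, the NF-κB site or TATAAA. For the last of these only the exact letters TATAAA were searched, and the printed IER5 sequence holds TATATAA near its 3′ end. The core TGACG, which the full CRE contains, was in 24.6% of all 35116 promoter windows and in 1 of the 3 IER windows. CCAAT was in 34.6% of all windows. These matches describe the letters of the windows and do not show binding. The IER2 window rests on its RefSeq gene start, while 3 transcripts of IER2 are annotated. On GRCh37 the gene STX10, on the reverse strand, lies 28 bases before IER2.

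IER2 was the most abundant of the 4 in these cells. It had 38.9, 38.1 and 37.3 normalized CPM in DMSO replicates 1, 2 and 3, and 42.9, 40.3 and 40.5 CPM in AZD7762 replicates 1, 2 and 3. Every AZD7762 sample lay above every DMSO sample, by a small margin. The means were 38.1 ± 0.789 CPM with DMSO and 41.2 ± 1.47 CPM with AZD7762 (SD, n = 3 in each group).

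IER5, the HSF1 coactivator, had 19.6, 18.2 and 19.9 CPM with DMSO and 20.2, 20.4 and 19.4 CPM with AZD7762. The groups overlapped, and DMSO replicate 2 was the low sample. The means were 19.2 ± 0.893 CPM with DMSO and 20.0 ± 0.515 CPM with AZD7762 (SD, n = 3 in each group).

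IER3 was measured at a lower level, with 95, 88 and 96 counts in the DMSO samples and 94, 56 and 66 in the AZD7762 samples. These were 3.22, 3.24 and 4.60 CPM with DMSO and 3.74, 2.66 and 3.10 CPM with AZD7762. The groups overlapped, with DMSO replicate 3 above the other 5 samples and AZD7762 replicate 2 below them. Their means were 3.68 ± 0.794 and 3.16 ± 0.541 CPM (SD, n = 3 in each group).

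IER5L was near the limit of detection, with 10, 14 and 7 counts in the DMSO samples and 5, 6 and 7 counts in the AZD7762 samples. In CPM these were 0.339, 0.515 and 0.335 with DMSO and 0.199, 0.285 and 0.328 with AZD7762. The AZD7762 samples lay below the DMSO samples, but the nearest samples of the groups, replicate 3 of each, both held 7 counts.

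**Figure D1:**
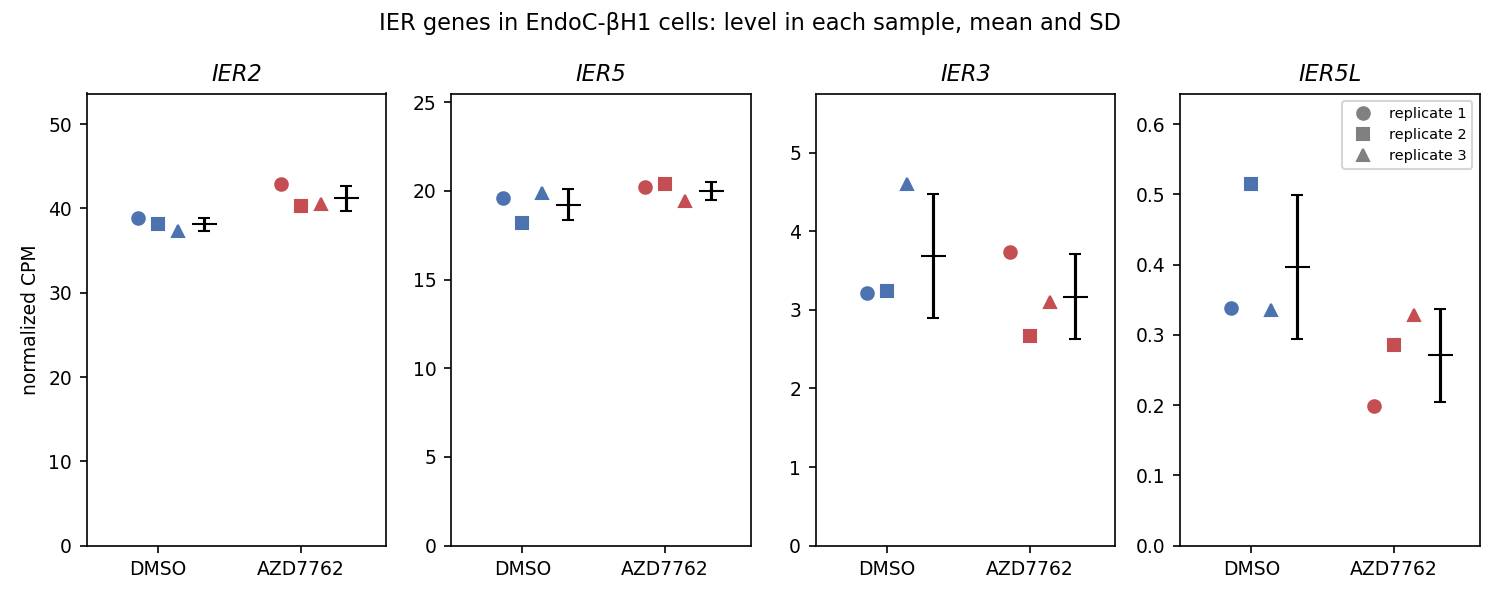
Normalized CPM of each IER gene (vertical axes from 0, a scale of its own for each gene) in the 3 DMSO and 3 AZD7762 samples, with marker shapes for the replicate numbers and black bars for the mean and SD. The AZD7762 points of IER2 lie between 40.3 and 42.9 CPM, just above the DMSO points, and the groups of IER5 and IER3 overlap.

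Per length, the order of the levels was IER2, IER5, IER3 and IER5L in both groups. RPKM, the CPM per kilobase of annotated exon, was 12.4 ± 0.256 for IER2, 4.58 ± 0.213 for IER5, 2.73 ± 0.588 for IER3 and 0.146 ± 0.0379 for IER5L with DMSO (SD, n = 3). With AZD7762 it was 13.4 ± 0.477, 4.76 ± 0.123, 2.34 ± 0.401 and 0.0999 ± 0.0243. No neighbours in this order overlapped in any sample, the closest being IER5 and IER3 with DMSO, where the lowest IER5 sample had 4.33 RPKM and the highest IER3 sample 3.41 RPKM. Within a sample, IER2 had from 2.56 to 2.86 times the RPKM of IER5 with DMSO and from 2.69 to 2.90 times with AZD7762. The IER2 level depends on the length used, since the canonical transcript of 2110 bases in place of all 3079 exon bases gives 18.1 RPKM with DMSO.

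None of the 3 IER genes tested, IER2, IER5 and IER3, was called different between AZD7762 and DMSO by edgeR's quasi-likelihood test, in which a gene is called at a Benjamini-Hochberg adjusted p under 0.05 over all 17649 genes tested. Among those genes, 125 were called, which is 0.708%, and 0 of the 3 IER genes that passed the filter on low counts were. None of the 3 had an unadjusted p under 0.05, and DESeq2's Wald test and edgeR's likelihood ratio test also called 0. The groups did not overlap for 1 of the 3 IER genes tested, IER2, and for 15.0% of all genes tested. Those of IER5L, which was not tested, did not overlap in CPM either, but replicate 3 of both groups held 7 counts.
The log2 fold change of IER2 was 0.11 (SE 0.0637, edgeR, adjusted p = 0.612), a 1.08-fold difference with a 95% confidence interval from 0.983-fold to 1.19-fold. The log2 value of IER5 was 0.058 (SE 0.0770, edgeR, adjusted p = 0.860), with an interval from 0.927-fold to 1.17-fold, and 0.013 without DMSO replicate 2, its low sample. IER3 was measured less precisely, at -0.19 on the log2 scale (SE 0.182, edgeR, adjusted p = 0.793) and with an interval from 0.666-fold to 1.15-fold. The IER3 value was -0.015 without DMSO replicate 3, the high sample, and -0.35 without AZD7762 replicate 1.
IER5L did not pass the filter on low counts and was not tested. Its counts summed to 31 with DMSO and 18 with AZD7762, a ratio of 0.667 of the scaled counts with an exact 95% interval from 0.352 to 1.23, which covers counting error only. At this depth the interval holds no rise beyond 1.23-fold, and it leaves a fall or no difference undecided. For IER2, with 61.7% GC in its longest transcript, the log2 fold change was 0.042 when the trends of each library with GC content and length were taken out.

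**Figure D2:**
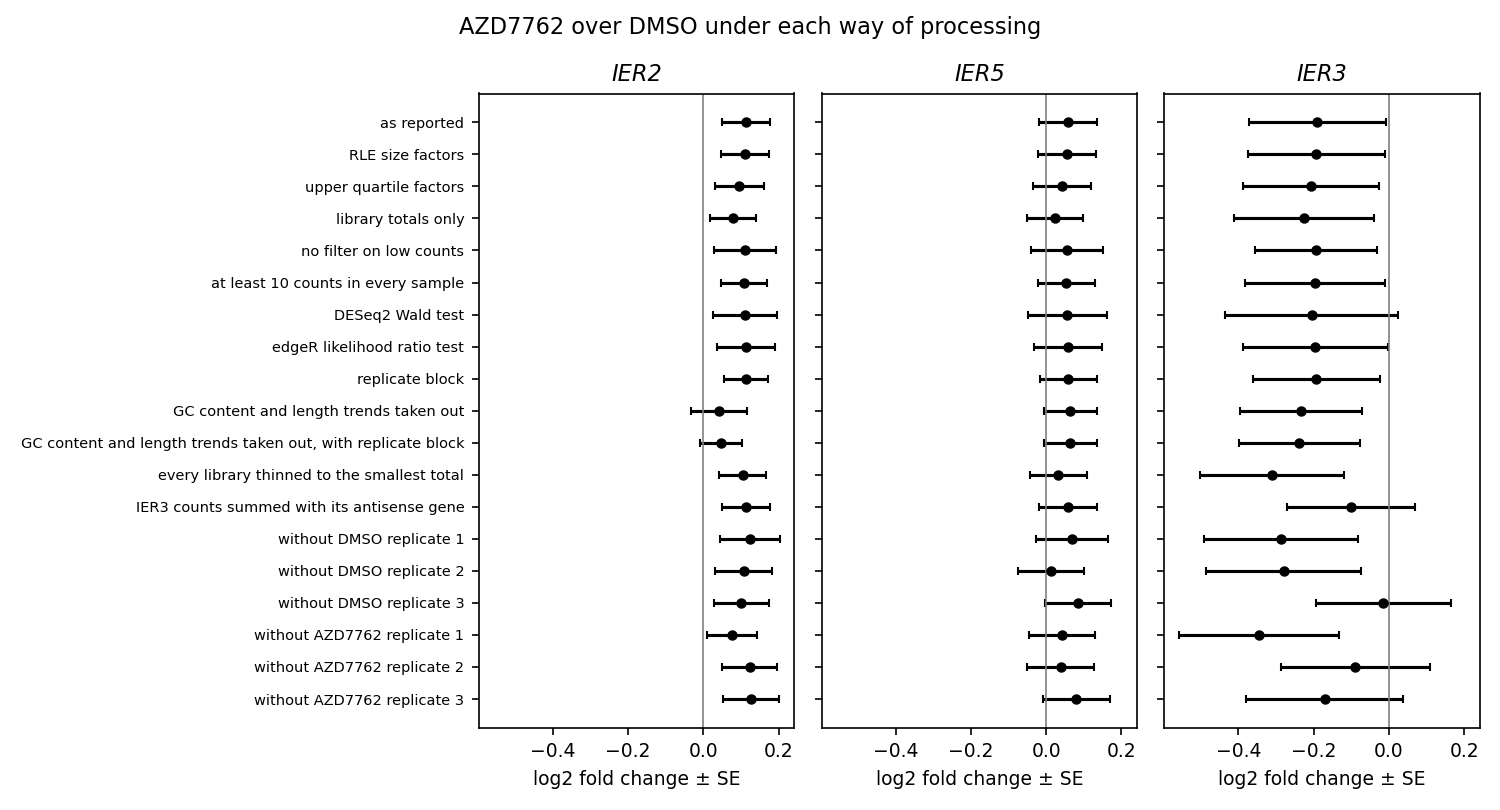
Log2 fold change of IER2, IER5 and IER3, AZD7762 over DMSO, with its standard error (horizontal axis) under each way of processing and with each sample left out (vertical axis). IER2 stays between 0.042 and 0.13, IER5 between 0.013 and 0.085 and IER3 between -0.35 and -0.015.

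Many other immediate early genes did change in the same 6 samples. Of 49 in 2 lists of such genes, 46 were tested, 20 were called higher with AZD7762 and 6 lower, against 0.357% and 0.351% of all genes tested, and 20 were not called. The median log2 fold change over the 46 was 0.62, and over all genes tested it was 0.0076. The lists share many genes with those examined earlier in these samples and are no independent evidence of a direction.
Transcription factors made up 11 of the 20 that rose. The orphan nuclear receptors NR4A1, NR4A2 and NR4A3 had log2 fold changes of 3.50, 3.93 and 1.62, and the neuronal activity factor NPAS4 one of 5.50. The AP-1 members FOS, FOSL2 and JUNB had 2.92, 1.86 and 1.47, and EGR1, MYC, KLF4 and HES1 lay between 0.98 and 1.83. The other 9 that rose were SIK1, a kinase that restrains CREB coactivators, BTG2, RGS2, GADD45B, DUSP1, ZFP36, ARC, SGK1 and GEM. SIK1 had a log2 fold change of 4.77, and its reads may be shared with a near-identical copy. BTG2, an antiproliferative gene, had one of 2.50, DUSP1, a MAP kinase phosphatase, one of 1.69, and ZFP36, an mRNA decay factor, one of 1.59.
The 6 that fell were the AP-1 member JUN, the zinc finger factor KLF6, the ERK phosphatase DUSP6, ZFP36L2, the pseudokinase TRIB1 and the GTPase RHOB, with log2 fold changes from -1.52 for RHOB to -0.43 for JUN. Of the 20 not called, the smallest p-values belonged to the kinase gene PLK3 (-0.74), the ERK phosphatase gene DUSP5 (0.53), the stress factor ATF3 (-0.42) and EGR2 (0.81), in log2 fold change, and the median of the 20 was 0.015.
The upper limits of the 95% intervals of IER2, IER5 and IER3, at 0.25, 0.23 and 0.21 on the log2 scale, lay below the smallest rise called in the lists, 0.84 for GEM. Which rise is the smallest called depends on the threshold, and the values of list genes not called reached 0.81, for EGR2. The lower limits of IER2, IER5 and IER3 were -0.025, -0.11 and -0.59, so that for IER3 a fall as large as that of JUN lay within the interval. Whether the change of an IER gene differed from that of another gene was not tested.

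**Figure D3:**
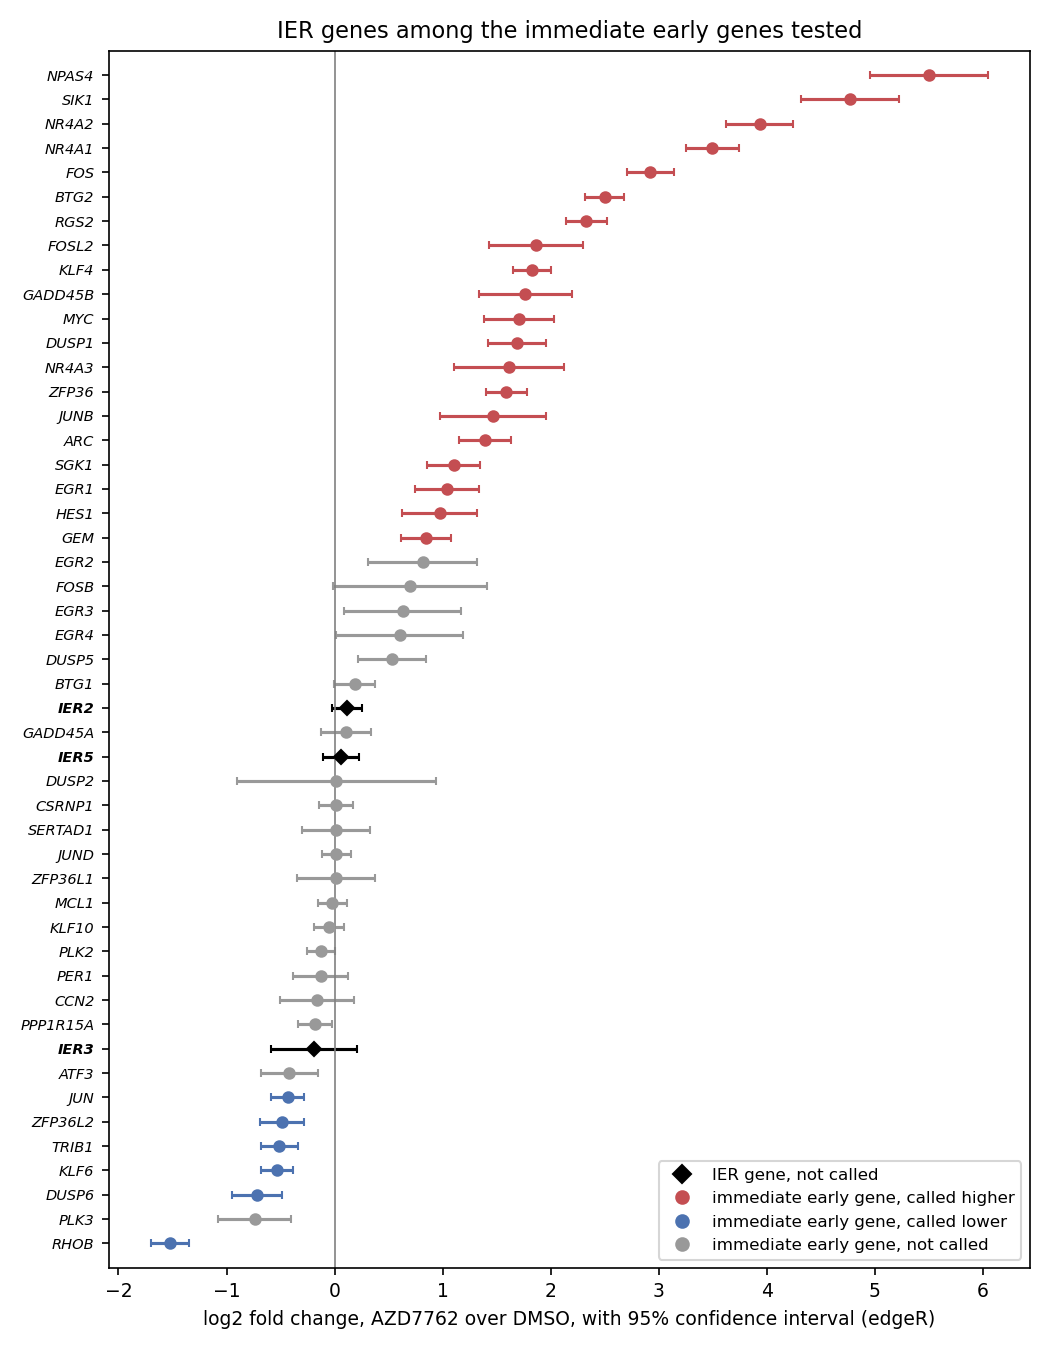
Log2 fold change, AZD7762 over DMSO, with 95% confidence interval (horizontal axis) of the 3 IER genes tested and the 46 immediate early genes tested, ordered by value (vertical axis), with colours for the call. IER2, IER5 and IER3 (black diamonds) sit between -0.19 and 0.11, while the 20 genes called higher lie from 0.84 to 5.50.

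The 3 IER genes tested lay within the range of levels of the genes that rose. With DMSO, the 20 genes called higher had from 0.343 to 97.7 CPM with a median of 9.31 CPM, a range that holds IER2, IER5 and IER3. The standard errors of these 20 genes lay between 0.0800 and 0.251, against 0.0637 to 0.182 for the 3 IER genes. Per length, IER2 with DMSO stood above 35 of the 49 immediate early genes, IER5 above 26, IER3 above 22 and IER5L above 4. With AZD7762 they stood above 31, 20, 18 and 1. The CRE core TGACG was in 12 of the 16 promoter windows at hand for immediate early genes called higher, in 2 of 4 for those called lower and in 7 of 15 for those not called, beside 24.6% of all windows. The full CRE TGACGTCA was in 1 of the 16, 0 of the 4 and 2 of the 15, beside 1.85% of all windows, and no difference between these counts was tested. For the immediate early genes only the first window of each gene was used, while the shares of all windows were not limited in this way.

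**Figure D4:**
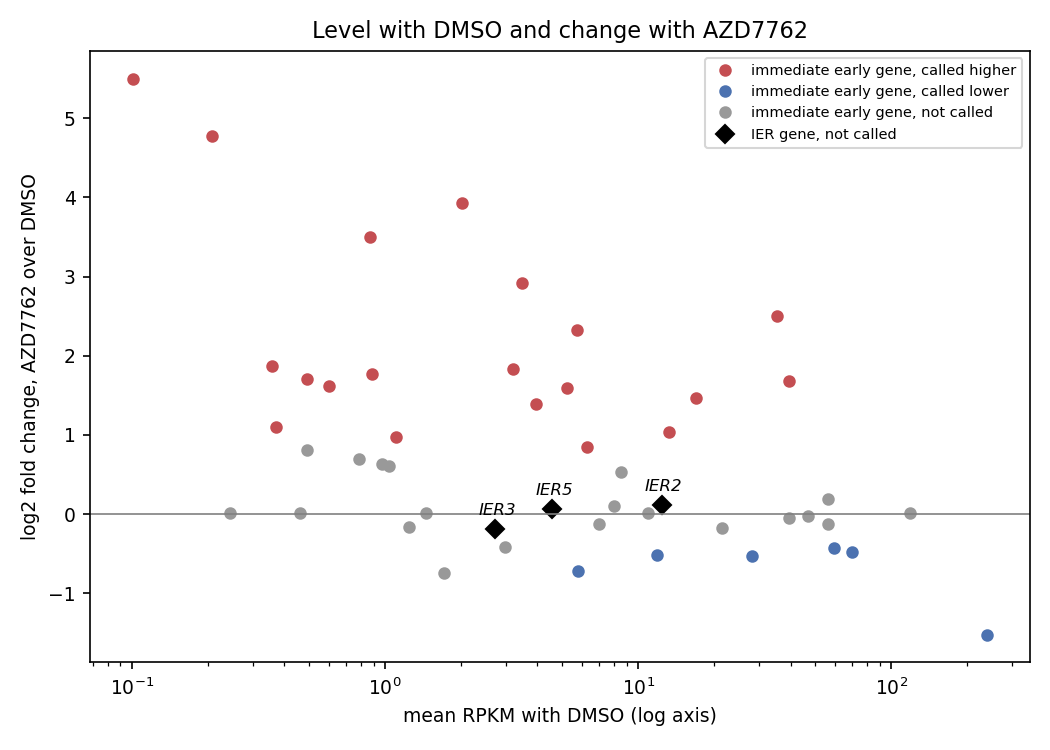
Mean RPKM with DMSO (horizontal log axis) and log2 fold change, AZD7762 over DMSO (vertical axis), of the immediate early genes tested and the 3 IER genes tested. IER3, IER5 and IER2, at 2.73, 4.58 and 12.4 RPKM, lie near 0 at levels where other immediate early genes rose or fell.

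Kinases and factors that act upstream of immediate early promoters were tested as a list of 16. Of these 1 was called, SRF, beside 0.708% of all genes tested. SRF, the factor that binds CArG boxes, rose from 54.1 ± 11.9 to 107 ± 13.8 CPM (SD, n = 3 per group), or by 0.99 on the log2 scale (SE 0.135, edgeR, adjusted p = 0.00233). The median of the 16 was 0.053. The genes next by p were MRTFA, a coactivator of SRF, with a log2 fold change of 0.18, MAPK3, which encodes an ERK kinase, with 0.15, RPS6KA1, a kinase downstream of ERK, with 0.12, and RELA, a subunit of NF-κB, with 0.15, none of them called.

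The partners and targets of IER5 and IER3 were examined next. Of 13 PP2A subunits, 0 were called by edgeR's quasi-likelihood test, DESeq2 or the likelihood ratio test, and no unadjusted p was under 0.05. Their log2 fold changes lay between -0.049 and 0.095 with a median of 0.0037. The smallest p belonged to PPP2R1A, a scaffold subunit, with 0.095. The B55 subunit genes PPP2R2A, PPP2R2B, PPP2R2C and PPP2R2D, picked for their role after their values were seen, had 0.066, 0.023, 0.035 and -0.049.
HSF1, the factor that IER5 promotes, also named for its role, differed by 0.075 on the log2 scale (edgeR, adjusted p = 0.864). Of the 15 genes for HSF1, HSF2 and heat shock proteins, 0 were called by edgeR's quasi-likelihood test or DESeq2 and 1 by the likelihood ratio test, and the unadjusted p was under 0.05 for 6, beside 1708 of all 17649 genes tested. With no filter on low counts 2 were called, without DMSO replicate 3 also 2, with the replicate number as a term 1, and 4 when trends with GC content and length were removed as well, all of them higher with AZD7762. Values of 14 of the 15 were above 0, beside 52.4% of all genes tested, and the median was 0.099. The largest values were those of HSPB1 (0.69, adjusted p = 0.222) and HSPA1A (0.38, adjusted p = 0.108) in edgeR's test, with 0.29 for HSPA1B, whose near-identical sequence makes the split of reads with HSPA1A uncertain.
IER3 is a target of NF-κB and p53. Of 18 NF-κB targets, 12 were tested and 1 was called, NFKBIZ, beside 0.708% of all genes tested. NFKBIZ fell from 10.9 to 4.08 CPM, by 1.41 on the log2 scale (edgeR, adjusted p = 0.00151). The unadjusted p in edgeR's test was under 0.05 for 6 of the 12, beside 1708 of all 17649 genes tested. The inhibitor NFKBIA had a log2 fold change of 0.30, TNFAIP3 one of 0.37 and REL one of -0.44, none of them called, and the median was 0.048. Of 18 p53 targets, 18 were tested and 1 was called, the apoptosis gene PMAIP1, beside 0.708% of all genes tested. PMAIP1 went from 92.6 to 70.6 CPM, -0.39 on the log2 scale (edgeR, adjusted p = 0.00659). Values of 4 of the 18 were above 0, beside 52.4% of all genes tested. The unadjusted p in edgeR's test was under 0.05 for 2 of them all. TP53INP1 and the death receptor gene FAS, next by p, had -0.16 and -0.53, and the median of the list was -0.076.

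Over the 6 samples, Pearson's r of log2 CPM was 0.47 between IER2 and IER5, -0.30 between IER2 and IER3 and 0.060 between IER3 and IER5. These values rest on 6 points in 2 groups that share library depth and scaling, and they are descriptions. Among 13901 other genes, those whose mean log2 CPM reached 1, FBXO10, DPH2, CYSTM1, PTMS and PDCD5 had the pattern most like IER2, with r from 0.987 to 0.998. For IER5 these were RELA-DT, TTC38, FBXO31, ARPC1B and CAVIN3, with r from 0.970 to 0.986, and for IER3 they were SLC10A3, RASSF5, ALDH5A1, TXNDC12 and FAM181B, with r from 0.973 to 0.987. None of these 15 genes was called in edgeR's test, and an r of at least 0.95 was reached by 75 genes for IER2, 16 for IER5 and 17 for IER3.

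The genes around the IER genes on their chromosomes were examined as well. The nearest coding genes were STX10, 28 bases from IER2, and FLOT1, 467 bases from IER3, with log2 fold changes of 0.10 and 0.10. None of the 8 nearest coding genes that do not overlap an IER gene was called in edgeR's test. ENSG00000235007, a coding gene that overlaps IER5L on the other strand without sharing exon bases, had no count. PTPA, 26606 bases from IER5L, encodes an activator of PP2A and had the only unadjusted p under 0.05 among them (log2 fold change 0.16, adjusted p = 0.481, edgeR). IER3-AS1, the antisense gene whose exons cover 32.6% of IER3, held between 18 and 33 counts a sample and differed by 0.19 on the log2 scale (edgeR, adjusted p = 0.854). When its counts were added to those of IER3, a choice made after seeing the data, the log2 fold change of IER3 was -0.10. IER5L-AS1 and the 2 antisense genes at IER2 had no count in any sample.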

How the data were processed

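RNA-seq was performed on 6 EndoC-βH1 samples, grouped by treatment from their labels. The authors checked reads with FastQC 0.10.1, trimmed them with cutadapt 1.18, and used GRCh37 for alignment and HTSeq-count for counting. Whole-number raw counts for each gene identifier were deposited by the authors, without normalization. The aligner, annotation release and strand setting are not given in the sources used here. Symbols, positions and exon lengths came from GENCODE 44 mapped to GRCh37, which lists 58646 of the 60671 identifiers, and the other 2025 held 0.153% of the counts.

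The analysis used edgeR 4.0.16 under R 4.3.3. The filterByExpr function left 17649 genes, TMM factors scaled the libraries (20486391 to 29402440 counts), and the quasi-likelihood test compared AZD7762 with DMSO, with treatment as the only term and Benjamini-Hochberg adjustment over all genes tested. Tests are two-sided. Standard errors (SE) come from the fold change and its F statistic. Likeness between genes was computed on log2 CPM with a prior count of 2. The procedure was tested on simulated counts, with changes larger than those of the IER genes and in genes with more counts than IER5L. How well it finds small changes was not tested. Alternatives were other scaling, filters and tests (DESeq2 1.42.0), trends with GC content and length, the replicate number as a term, thinned libraries and leaving out each sample.

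The IER genes and the gene lists were chosen with earlier results of these data known. Genes named are the IER genes, called list members and otherwise at most 4 of a list with the smallest p, the 5 genes most like each IER gene, and their neighbours. The B55 subunit genes and HSF1 were added for their role after their values were seen. Intervals on counts cover counting error only. Promoter sequences are from RefSeq on GRCh38.p14.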

Additional observations from a re-analysis of the deposited data

How the results depend on the processing

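IER2, IER5 and IER3 were not called under any of the 18 alternatives and kept their direction in all of them, with adjusted p from 0.356 to 1.00 over edgeR and DESeq2. IER5L was tested only with no filter (edgeR, adjusted p = 0.793), and its value was below 0 in 10 of 11 alternatives. Leaving out 1 sample at a time gave log2 fold changes from 0.075 to 0.13 for IER2, 0.013 to 0.085 for IER5, -0.35 to -0.015 for IER3 and -0.71 to -0.32 for IER5L (-0.55 with all samples). Thinning every library to the smallest total, chosen after seeing the data, turned IER5L to 0.12.

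Against 125 genes called in all, there were 330 with no filter, 267 by the likelihood ratio test of edgeR and 230 once trends with GC content and length had been removed. The cause was not tested. Leaving out 1 sample gave from 77, without AZD7762 replicate 1, to 168 genes. Called genes in the 7 lists around the IER genes went from 29 to between 24 and 40 over all alternatives.

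Deviations from the group means correlated at 0.053, 0.12 and 0.21 between samples with the same replicate number. Between samples with different numbers the correlations lay from -0.25 to 0.17. DMSO replicates 2 and 3 correlated best with the AZD7762 sample of their own number, and DMSO replicate 1 with AZD7762 replicate 2. The labels do not say that the numbers pair the samples, and the main fit left them out. With the replicate block, 378 genes were called, and 550 when those trends were removed too, while IER2 had a log2 fold change of 0.11 (adjusted p = 0.356), IER5 0.059 and IER3 -0.19 in edgeR's test. Summing identifiers with the same symbol was not run, because each symbol had 1 identifier. IER5L rests on 31 counts with DMSO and 18 with AZD7762, which limits its precision.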

Other observations

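The promoter windows of IER5 and IER5L, the pair of closest relatives among the IER genes, held their reverse-strand CCAAT boxes at the same distance from each other. In both windows the 2 boxes start 64 bases apart. Of 35116 RefSeq promoter windows, 1195 (3.40%) held 2 or more reverse-strand CCAAT boxes in the 250 bases before the start. A pair at that spacing was in 17 of these 1195, or 0.0484% of all windows, and the 17 include IER5 and IER5L. The spacing was noticed after the sequences were seen and describes letters, not binding. The 2 genes differed in level in these cells, with 4.58 RPKM for IER5 and 0.146 RPKM for IER5L with DMSO.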
